A study of Homo sapiens with 39 samples.

Results

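The 10 genes described here belong to the transforming growth factor beta (TGF-beta) pathway and were followed across 39 RNA-seq libraries of melanoma cells: the ligand genes TGFB1, TGFB2, TGFB3 and INHBA, the latency protein gene LTBP1, the receptor genes TGFBR1 and TGFBR2, the intracellular SMAD3 and SMAD7, and the target gene TGFBI. They were chosen by gene name from the 60671 genes of the deposited table, and all 10 of 10 had a TPM (a length-corrected share of the library) of 1 or more in no fewer than 3 libraries per line. TGF-beta and activin ligands are secreted as dimers, and TGF-beta is held in a latent complex with latent TGF-beta-binding proteins until it is released. A released ligand binds a type II receptor, which activates a type I receptor, which phosphorylates SMAD2 and SMAD3. These enter the nucleus with SMAD4 and act on target genes, among them SMAD7, whose product shuts the receptors off. In melanoma the pathway is known for its link to a less differentiated, more invasive cell state.

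A375 and WM115, the source of the libraries, are established lines of human melanoma cells. Each line was sampled as unedited cells (WT) and as clones lacking a part of the SOX10 enhancer, R1 or R4. SOX10 encodes a transcription factor that maintains melanocytic identity. A375 was represented by WT (4 libraries), clones 1.1 (3) and 1.2 (4) with R1 deleted, and clones 4.1 (4) and 4.2 (3) with R4 deleted. WM115 was represented by WT (4), clones 1.1 (5) and 1.2 (3) with R1 deleted, clones 4.1 (3) and 4.2 (3) with R4 deleted, and clone 1.3 (3), whose title names R1 and whose genotype label names R4. No treatment or time point is given for any group. Each clone is a single isolate, and the labels do not say whether the libraries of a clone are separate cultures, so p-values measure the spread between these libraries and compare a clone with WT rather than a deletion with its absence.

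Every library was checked against lists of cell type markers. The summed TPM of 8 melanocytic markers was 736 to 915 in A375 WT and 1255 to 3299 in WM115 WT. Of 4 leukocyte markers, PTPRC reached at most 0.483 TPM in WM115, while CD68 was at 225 to 757 TPM and made up nearly all of the list's sum of 225 to 758 TPM. SOX10 itself was 449 to 553 TPM in WM115 WT and 9.56 to 279 TPM in WM115 clone 1.2. Library 3 of that clone stands apart, with SOX10 at 9.56 TPM and a melanocytic sum of 59.8 TPM. The share of mitochondrial transcripts was 13.7 to 15.6% in WM115 WT and 4.71 to 19.4% in the WM115 clones. The share of ribosomal protein transcripts was 11.1 to 12.8% in WM115 WT and 15.1 to 17.4% in the WM115 clones, except for 10.6% in 1 library of clone 1.3. Read depth is unknown, since only TPM were deposited.

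The promoters of TGFB1, TGFB2 and INHBA are shown because the results below turn on these ligand genes. Each run covers bases 250 to 21 before the RefSeq start of the gene on GRCh38.p14, read 5′ to 3′ on the gene's strand. Capitals mark the SMAD-binding core CAGAC and the GC box GGGCGG, searched on both strands, so that GTCTG and CCGCCC mark reversed matches. RefSeq starts differ from those of the gene spans given below, which are GENCODE's: the INHBA window lies inside the GENCODE span of the gene, between its exons, and the windows of TGFB1 and TGFB2 lie upstream of the span.
TGFB1, chr19:41353943-41354172, minus strand: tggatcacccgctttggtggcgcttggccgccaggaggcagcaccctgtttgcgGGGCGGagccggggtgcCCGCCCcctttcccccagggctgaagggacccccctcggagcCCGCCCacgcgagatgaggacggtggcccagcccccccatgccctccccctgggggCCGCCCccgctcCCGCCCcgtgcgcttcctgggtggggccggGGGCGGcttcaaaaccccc
TGFB2, chr1:218345086-218345315, plus strand: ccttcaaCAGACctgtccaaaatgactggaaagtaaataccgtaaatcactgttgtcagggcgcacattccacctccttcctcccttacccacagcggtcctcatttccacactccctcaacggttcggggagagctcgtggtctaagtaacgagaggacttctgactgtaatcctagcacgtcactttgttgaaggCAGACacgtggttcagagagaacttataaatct
INHBA, chr7:41703111-41703340, minus strand: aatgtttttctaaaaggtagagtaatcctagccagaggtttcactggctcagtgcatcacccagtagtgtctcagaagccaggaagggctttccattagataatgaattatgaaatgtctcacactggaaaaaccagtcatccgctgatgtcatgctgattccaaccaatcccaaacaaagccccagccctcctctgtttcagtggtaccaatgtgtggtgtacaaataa

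The TGFB1 window was 76.5% G or C and held 6 GC boxes, 2 on the plus and 4 on the minus strand of the gene, and 0 CAGAC. The TGFB2 window was 48.7% G or C and held 2 CAGAC, beginning 243 and 53 bases before the start, and 0 GC boxes. The INHBA window was 43.9% G or C and held neither motif. Among 35116 RefSeq promoter windows of this length, 35.8% held at least 1 CAGAC and 7.8% at least 2, while 40.0% held at least 1 GC box and 1.6% at least 6. These matches describe the letters in the window only.

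**Figure D1:**
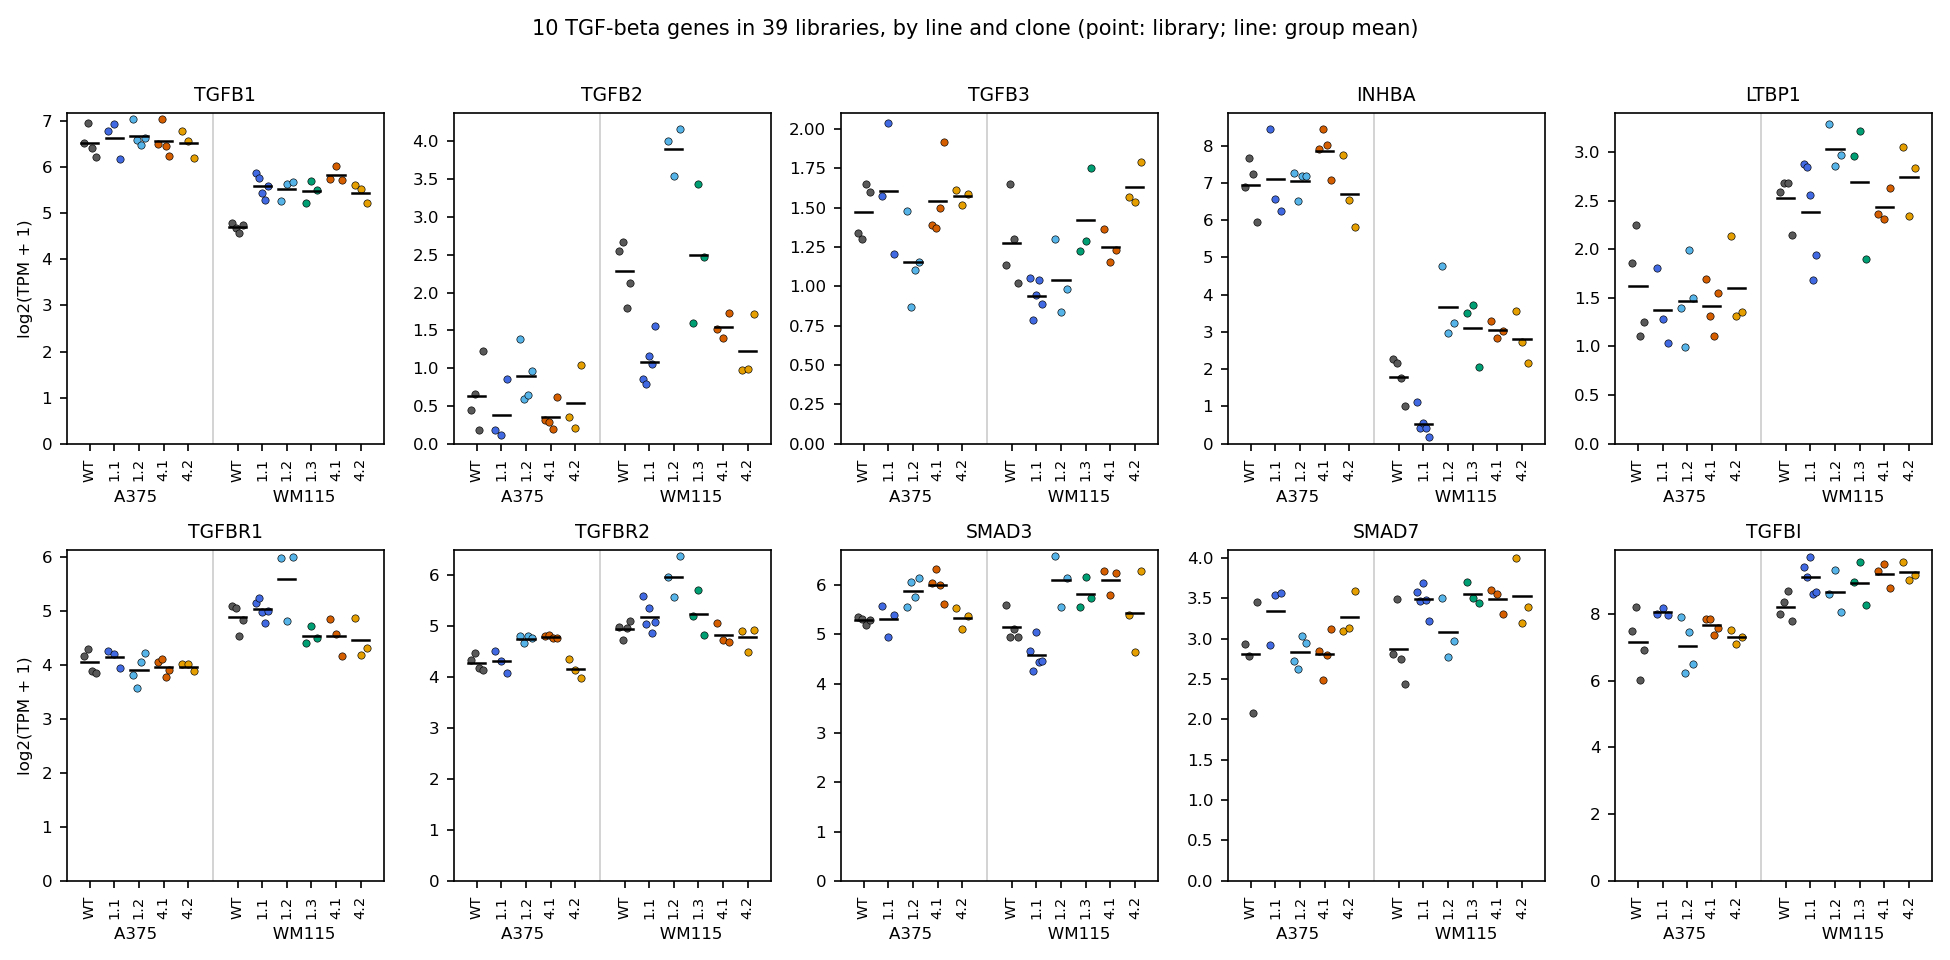
TPM of the 10 genes in each of the 39 libraries, plotted as log2(TPM + 1) by line and clone, with each point a library and each short line the group mean. Axis ranges differ between genes. TGFB1 sits at 22.9 to 26.8 TPM in WM115 WT and at 36.1 to 64.4 TPM in all WM115 clone libraries, and INHBA sits far higher in A375 than in WM115.

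The unedited lines already differed in the ligand genes INHBA, TGFB1 and TGFB2, while TGFB3 did not pass the test given below. INHBA (ENSG00000122641, chr7:41667168-41705834, minus strand), which encodes the subunit of activin A, was measured at 117, 203, 151 and 61.3 TPM in A375 WT and at 3.87, 3.48, 2.38 and 1.01 TPM in WM115 WT. TGFB1 (ENSG00000105329, chr19:41301587-41353911, minus strand), the most widely expressed TGF-beta ligand gene, was at 91.4, 123, 84.7 and 73.1 TPM in A375 WT against 26.8, 24.6, 22.9 and 25.9 TPM in WM115 WT. TGFB2 (ENSG00000092969, chr1:218346235-218444619, plus strand), a second TGF-beta ligand gene, was at 0.367, 0.582, 0.132 and 1.34 TPM in A375 WT against 4.84, 5.37, 2.46 and 3.35 TPM in WM115 WT. None of these 3 pairs of groups overlapped. The share of all genes without overlap was not counted, here or for any clone against WT below.

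Between the WT cells of the 2 lines, on the log2(TPM + 1) scale used for every difference below, INHBA was lower in WM115 by −5.14 ± 0.38 (difference ± SE, limma adjusted p = 5.22e-06), TGFB1 was lower by −1.83 ± 0.16 (adjusted p = 1.95e-05) and TGFB2 was higher by 1.65 ± 0.27 (adjusted p = 0.000746). The word called is kept for an adjusted p under 0.05 together with a difference of 1 or more in size. In this comparison 3 of 10 genes were called, against 22.7% of all genes tested. By adjusted p alone 6 of 10 passed, against 47.9% of all genes, the others being TGFBR1 (0.83 ± 0.17, adjusted p = 0.00287), TGFBR2 (0.66 ± 0.14, adjusted p = 0.00339) and LTBP1 (0.91 ± 0.26, adjusted p = 0.0174), all higher in WM115. SMAD3, SMAD7, TGFB3 and TGFBI did not pass, with adjusted p of 0.509, 0.89, 0.408 and 0.058. TPM corrects for length, so levels can be set side by side between genes: among genes tested in each line, the WT mean of INHBA stood at or above 93.1% of genes in A375 and 25.1% in WM115, and that of TGFBI stood at or above 94.7% and 97.5%.

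In WM115, TGFB1 rose in every clone. It was at 57.5, 53.7, 42.6, 38.1 and 47.3 TPM in clone 1.1 and at 37.3, 48.6 and 50.2 TPM in clone 1.2. It was at 36.5, 51.0 and 44.3 TPM in clone 1.3, at 52.2, 64.4 and 51.6 TPM in clone 4.1 and at 47.8, 44.8 and 36.1 TPM in clone 4.2. All clone libraries lay above the highest WT library, 26.8 TPM, and below the lowest A375 library, 71.6 TPM. How many of all genes lie apart from WT in every WM115 clone was not counted. The ratio of mean TPM to WT (25.1 ± 1.67 TPM, SD, n = 4) was 1.91, 1.81, 1.75, 2.24 and 1.71 in clones 1.1, 1.2, 1.3, 4.1 and 4.2. The log2 differences were 0.89 ± 0.14 (SE, limma adjusted p = 0.000186), 0.82 ± 0.15 (adjusted p = 0.00182), 0.77 ± 0.15 (adjusted p = 0.0154), 1.13 ± 0.15 (adjusted p = 6.98e-05) and 0.75 ± 0.15 (adjusted p = 0.00303), so that clone 4.1 alone also met the minimum size. The 5 comparisons share the 4 WT libraries.

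Leaving out any single library kept the TGFB1 adjusted p under 0.05 in clones 1.1, 1.2, 4.1 and 4.2, while clone 1.3 lost it without its library 2 (0.66, adjusted p = 0.122). Within libraries of a mitochondrial share of at least 7.5% the TGFB1 differences were 0.74 in clone 1.1 (adjusted p = 0.0325), 0.82 in clone 1.2 (adjusted p = 0.011), 0.77 in clone 1.3 (adjusted p = 0.0566) and 0.66 in clone 4.2 (adjusted p = 0.042). Clone 4.1 had too few such libraries for a value. All libraries of WT and of clones 1.2 and 1.3 are in that set. The differences of those 2 clones are therefore unchanged by it, and only the spread and adjusted p move. Within the set, clone 1.2 still held a mitochondrial share of 8.75 to 11.8%, against 13.7 to 15.6% in WT. Over all other ways of processing, the limma adjusted p of TGFB1 reached 0.848 in clone 1.3, 0.127 in clone 1.2 and 0.0538 in clone 4.2. It reached at most 0.0325 in clone 1.1 and 0.0332 in clone 4.1. The library of clone 1.3 with 10.6% ribosomal protein transcripts, below the WT range, held 44.3 TPM of TGFB1. In A375 the TGFB1 differences were −0.01 to 0.15 over the 4 clones (adjusted p from 0.736 to 0.984), and every clone overlapped WT.

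TGFB2 moved in opposite directions in different WM115 clones. It was at 0.819, 0.736, 1.23, 1.07 and 1.94 TPM in clone 1.1, all below the WT range of 2.46 to 5.37 TPM. It was at 15.0, 10.7 and 17.0 TPM in clone 1.2, all above WT. The log2 differences were −1.20 ± 0.29 (limma adjusted p = 0.00681) in clone 1.1 and 1.62 ± 0.33 (adjusted p = 0.0032) in clone 1.2, and both calls held with any single library left out. Both clones carry the same deletion by their labels.

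In the R4 clones of WM115, TGFB2 was at 1.86, 1.63 and 2.33 TPM in clone 4.1 (−0.73 ± 0.33, adjusted p = 0.113) and at 0.966, 0.984 and 2.30 TPM in clone 4.2 (−1.05 ± 0.33, adjusted p = 0.0302). Neither clone overlapped WT. The clone 4.2 call was lost without library 1 or 2 of the clone (−0.93 each, adjusted p = 0.109 and 0.12) or without WT library 1 or 2 (−0.97 and −0.92, adjusted p = 0.08 and 0.0857). Clone 1.3 spread from 2.02 to 9.84 TPM, across the WT range (0.22, adjusted p = 0.832). Within libraries of high mitochondrial share the TGFB2 differences were −0.98 in clone 1.1 (adjusted p = 0.213), 1.62 in clone 1.2 (adjusted p = 0.0256) and −0.93 in clone 4.2 (adjusted p = 0.19). The clone 1.2 difference is unchanged by that split, since all libraries of the clone and of WT are in the set. In A375, TGFB2 stayed at or below 1.61 TPM in every library, and its differences were −0.28 to 0.27 (adjusted p from 0.605 to 0.898).

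INHBA was lower in clone 1.1 and higher in clone 1.2 of WM115, as TGFB2 was. It was at 1.17, 0.338, 0.472, 0.333 and 0.123 TPM in clone 1.1, with 4 of 5 libraries below the lowest WT library of 1.01 TPM. It was at 26.3, 6.82 and 8.50 TPM in clone 1.2, all above the highest WT library of 3.87 TPM. The log2 differences were −1.27 ± 0.39 in clone 1.1 (limma adjusted p = 0.0268) and 1.86 ± 0.45 in clone 1.2 (adjusted p = 0.0083). The clone 1.2 call held with any single library left out. The clone 1.1 call was lost without library 2, 4 or 5 of the clone (adjusted p = 0.0531, 0.0503 and 0.0528) or WT library 1 or 2 (adjusted p = 0.0916 and 0.0826), and within libraries of high mitochondrial share it was −1.51 (adjusted p = 0.137).

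In clone 4.1 of WM115, INHBA was at 8.73, 6.11 and 7.09 TPM, again above all WT libraries, with a difference of 1.24 ± 0.45 that missed the threshold (limma adjusted p = 0.0504). Clones 1.3 (10.3, 12.3 and 3.14 TPM) and 4.2 (10.8, 5.64 and 3.5 TPM) overlapped WT, with adjusted p of 0.214 and 0.113. In A375 clone 4.1, INHBA was at 238, 350, 258 and 134 TPM, and 3 of 4 libraries lay above the highest WT library of 203 TPM. That difference was 0.92 ± 0.49 with an adjusted p of 0.552, and 0.92 ± 0.08 with an adjusted p of 0.00192 when libraries of the same replicate number were paired. The other A375 clones differed from WT by −0.23 to 0.15, and library 1 of clone 1.1, at 350 TPM against 94.4 and 75.6 TPM in the other libraries of that clone, was as high as the highest library of clone 4.1.

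**Figure D2:**
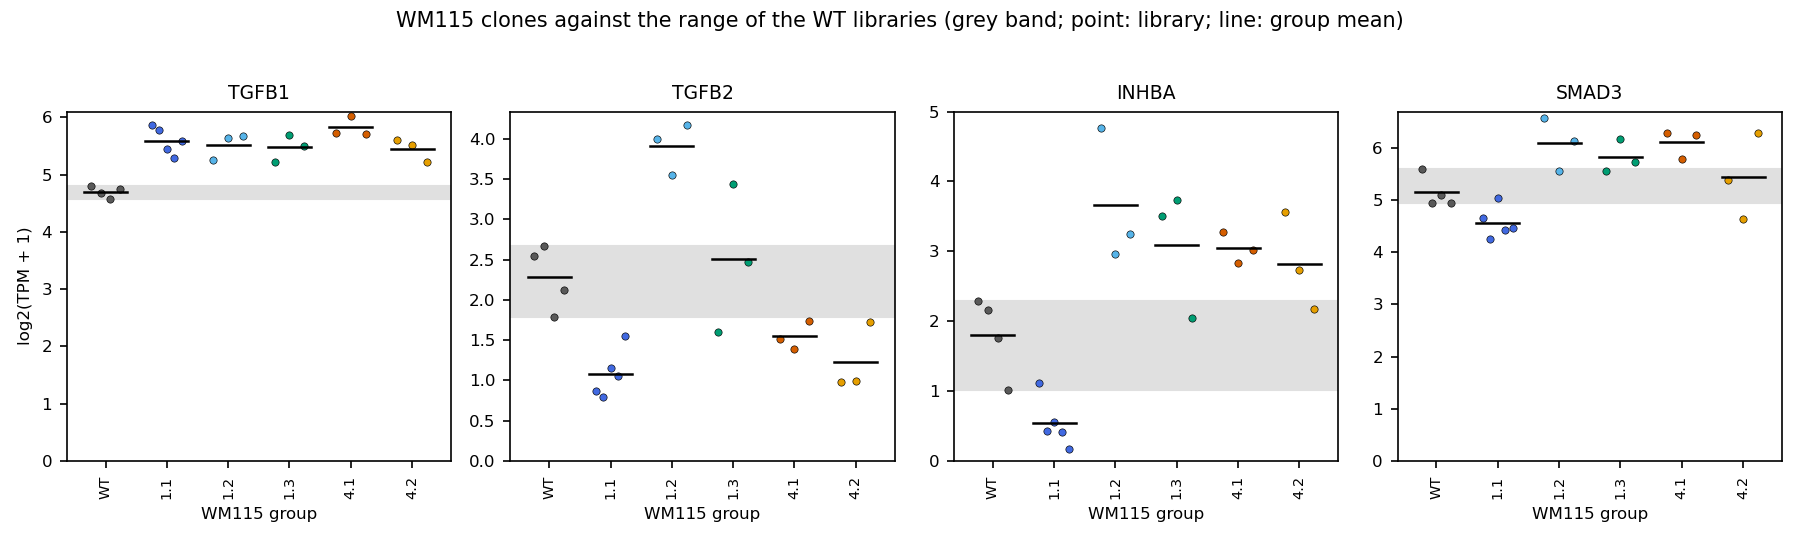
Levels of TGFB1, TGFB2, INHBA and SMAD3 in the WM115 libraries, plotted as log2(TPM + 1), with each point a library, each short line a group mean and the grey band the range of the WT libraries. TGFB2 lies below WT in clone 1.1 (0.736 to 1.94 TPM) and above WT in clone 1.2 (10.7 to 17.0 TPM), while TGFB1 lies above WT in both.

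The remaining ligand gene, TGFB3 (ENSG00000119699, chr14:75958099-75982991, minus strand), was low throughout, between 0.722 and 3.10 TPM over all libraries, and its differences from WT were −0.34 to 0.35, with no adjusted p under 0.122. LTBP1 (ENSG00000049323, chr2:32946972-33399509, plus strand) encodes a protein that binds latent TGF-beta and anchors it to the matrix. It was at 8.73, 6.21 and 6.82 TPM in WM115 clone 1.2 against 5.0, 5.42, 5.41 and 3.44 TPM in WT. Those groups did not overlap, but the difference of 0.51 did not pass (limma adjusted p = 0.24), and no clone of either line gave LTBP1 a lower adjusted p.

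TGFBR2 (ENSG00000163513, chr3:30606502-30694142, plus strand), the type II receptor gene that binds the ligand first, rose in WM115 clone 1.2. Its libraries held 61.2, 46.3 and 80.8 TPM against 30.6, 25.3, 30.1 and 32.9 TPM in WT, with no overlap. The ratio of means was 2.11 and the difference 1.02 ± 0.21 (limma adjusted p = 0.00379). It fell under the minimum size, with adjusted p still under 0.05, without library 3 of the clone (0.83, adjusted p = 0.0397) or WT library 2 (0.95, adjusted p = 0.0146). The other WM115 clones overlapped WT and differed by −0.17 to 0.30.

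In A375, TGFBR2 lay above WT (19.1, 21.2, 16.9 and 16.6 TPM) in 1 clone of each deletion. It was at 26.6, 24.1, 26.7 and 25.9 TPM in clone 1.2 and at 26.9, 27.2, 26.0 and 26.1 TPM in clone 4.1. The other clones overlapped WT, with 15.9 to 21.8 TPM in clone 1.1 and 14.7 to 19.3 TPM in clone 4.2. The differences were 0.47 ± 0.12 in clone 1.2 (limma adjusted p = 0.0228) and 0.51 ± 0.12 in clone 4.1 (adjusted p = 0.0507, or 0.0126 with replicate numbers paired). The clone 1.2 value lost the threshold without library 1, 3 or 4 of the clone or WT library 3 or 4 (adjusted p from 0.0555 to 0.0765).

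TGFBR1 (ENSG00000106799, chr9:99104038-99154192, plus strand), the type I receptor kinase gene, was at 62.2, 27.1 and 63.3 TPM in WM115 clone 1.2 against 33.2, 32.3, 22.3 and 27.7 TPM in WT. Library 2 of the clone lay within the WT range and the other libraries far above it. The difference was 0.72 ± 0.25 (limma adjusted p = 0.0438), and it missed the threshold without any 1 of the 7 libraries except library 2 of the clone (adjusted p from 0.0533 to 0.264). In the other 8 clones TGFBR1 differed by −0.42 to 0.15.

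SMAD3 (ENSG00000166949, chr15:67063763-67195195, plus strand), the transcription factor gene at the end of the receptor signal, was higher in the same A375 clones as TGFBR2. It was at 45.9, 65.2, 52.7 and 69.4 TPM in clone 1.2 and at 65.1, 79.0, 62.8 and 47.8 TPM in clone 4.1, against 40.0, 38.4, 35.5 and 38.3 TPM in WT. Neither clone overlapped WT, whereas clones 1.1 (29.6 to 46.4 TPM) and 4.2 (33.3 to 45.4 TPM) did. The differences were 0.59 ± 0.17 in clone 1.2 (limma adjusted p = 0.0465) and 0.71 ± 0.17 in clone 4.1 (adjusted p = 0.0582, or 0.0125 with replicate numbers paired). The clone 1.2 value missed the threshold when any of its 8 libraries except library 1 of the clone was left out (adjusted p from 0.0638 to 0.159).

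In WM115, SMAD3 was at 77.0, 54.5 and 74.5 TPM in clone 4.1, above all WT libraries (47.5, 29.6, 33.2 and 29.9 TPM). It was at 94.8, 46.2 and 69.5 TPM in clone 1.2, where library 2 overlapped WT, and at 24.1, 18.1, 31.9, 20.6 and 21.1 TPM in clone 1.1, where 4 of 5 libraries lay below WT. The differences were 0.96 ± 0.31 in clone 4.1 (limma adjusted p = 0.0294), 0.95 ± 0.31 in clone 1.2 (adjusted p = 0.0337) and −0.58 ± 0.27 in clone 1.1 (adjusted p = 0.134). The clone 4.1 value missed the threshold without library 1 or 3 of the clone or WT library 2 or 4 (adjusted p from 0.0715 to 0.107). The clone 1.2 value missed it without library 1 or 3 of the clone or WT library 2, 3 or 4 (adjusted p from 0.056 to 0.133). In clone 1.1 the 575 tested genes of chromosome 15 had a median difference of −0.39, against −0.12 over all genes, and in clones 1.1 and 4.1 the 920 tested genes of chromosome 3, which carries TGFBR2, had medians of −0.32 and −0.35. Chromosome 3 had a median of 0.18 in WM115 clone 1.2 and chromosome 15 one of 0.03, against −0.02 over all genes. Chromosome 7, which carries INHBA, had 0.16 in that clone. Chromosome 15 had −0.11 in WM115 clone 4.1, against −0.1 over all genes. It had 0.1 and 0.18 in A375 clones 1.2 and 4.1, where chromosome 3 had 0.07 and −0.02. The medians over all genes there were 0.07 and −0.02. The part of these chromosome-wide shifts in the SMAD3, TGFBR2 and INHBA values was not tested.

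SMAD7 (ENSG00000101665, chr18:48919853-48952052, minus strand), the inhibitory SMAD gene, was at 6.01, 10.3, 5.71 and 4.42 TPM in WM115 WT. It was at 11, 10.1, 11.9, 10.2 and 8.32 TPM in clone 1.1 and at 15.0, 8.20 and 9.55 TPM in clone 4.2. WT library 2 lies among the clone libraries and every WM115 clone overlapped WT. The differences were 0.62 ± 0.20 in clone 1.1 (limma adjusted p = 0.0344) and 0.66 ± 0.23 in clone 4.2 (adjusted p = 0.0489). The clone 1.1 value missed the threshold without any of its libraries 1 to 4 or WT library 1, 3 or 4 (adjusted p from 0.0565 to 0.131), and the clone 4.2 value without its library 1 or 3 or WT library 1, 3 or 4 (adjusted p from 0.0669 to 0.246). Clones 1.2, 1.3 and 4.1 had adjusted p of 0.536, 0.202 and 0.0567, and in A375 the lowest was 0.528.

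TGFBI (ENSG00000120708, chr5:136028895-136063818, plus strand) encodes an extracellular matrix protein named for its induction by TGF-beta, and it had the highest level of the 10 genes in WM115. It was at 254, 329, 416 and 219 TPM in WT, at 751, 517 and 579 TPM in clone 4.2 and at 623, 716 and 442 TPM in clone 4.1, both above all WT libraries. It was at 679, 554, 844, 391 and 400 TPM in clone 1.1, where 3 of 5 libraries lay above WT. The differences were 1.04 ± 0.34 in clone 4.2 (limma adjusted p = 0.0361), 0.98 ± 0.34 in clone 4.1 (adjusted p = 0.0425) and 0.89 ± 0.30 in clone 1.1 (adjusted p = 0.0377). The clone 4.2 call was lost when any of its 7 libraries except WT library 3 was left out (adjusted p from 0.0559 to 0.132). The clone 4.1 value missed the threshold without library 1 or 2 of the clone or WT library 1, 2 or 4 (adjusted p from 0.0611 to 0.157), and the clone 1.1 value without library 1, 2 or 3 of the clone or WT library 1, 2 or 4 (adjusted p from 0.0621 to 0.121).

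The TGFBI differences were smaller with the set of high or low mitochondrial share as a term in the fit, at 0.82 in clone 4.2 (adjusted p = 0.0628), 0.54 in clone 4.1 (adjusted p = 0.282) and 0.50 in clone 1.1 (adjusted p = 0.265). The part of the mitochondrial share in these values was not tested beyond that fit. In A375, TGFBI was at 254, 288 and 252 TPM in clone 1.1 against 178, 297, 64.6 and 119 TPM in WT, an overlap with a difference of 0.89 and an adjusted p of 0.488.

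Counts over the 10 genes are given beside the share of all tested genes that met the same rule. In A375, 0 of 10 genes were called in clones 1.1, 1.2, 4.1 and 4.2, against 0.731%, 4.01%, 0.653% and 0.473% of all genes tested. At an unadjusted limma p under 0.05 the A375 clones had 1, 2, 2 and 0 of the 10, and 1679, 3530, 1758 and 1297 of all 16692 genes tested. By adjusted p alone, 2 of 10 passed in clone 1.2 (SMAD3 and TGFBR2, against 8.53% of all genes) and 0 in clones 1.1, 4.1 and 4.2 (against 1.04%, 1.31% and 0.557%). With replicate numbers paired, clone 4.1 had 3 of 10 by adjusted p alone (INHBA, SMAD3 and TGFBR2, against 11.7%) and 0 of 10 that also met the minimum size (against 1.45%). Over the 11 other ways of processing run for that clone, the adjusted p ran from 0.00192 to 1.0 for INHBA, from 0.0126 to 0.595 for TGFBR2 and from 0.0125 to 0.407 for SMAD3 in that clone.

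In WM115, 2 of 10 genes were called in clone 1.1, both lower (TGFB2 and INHBA, against 4.88% of all genes), and 3 of 10 in clone 1.2, all higher (TGFB2, INHBA and TGFBR2, against 7.61%). Clone 1.3 had 0 of 10 (against 0.618%), with 5 of 10 at an unadjusted limma p under 0.05, as had 2212 of all 16997 genes tested. Clone 4.1 had 1, higher (TGFB1, against 7.57%), and clone 4.2 had 1 higher and 1 lower (TGFBI and TGFB2, against 6.6%). By adjusted p alone the counts were 5 of 10 in clone 1.1 (against 22.0%), 6 in clone 1.2 (22.6%), 1 in clone 1.3 (1.06%), 3 in clone 4.1 (24.2%) and 4 in clone 4.2 (20.3%). The median difference of the 10 genes was 0.77 in clone 1.2 and 0.0 in clone 1.1, against medians over all tested genes of −0.02 and −0.12. In bulk samples, fewer cells of a kind and less RNA per cell cannot be told apart.

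**Figure D3:**
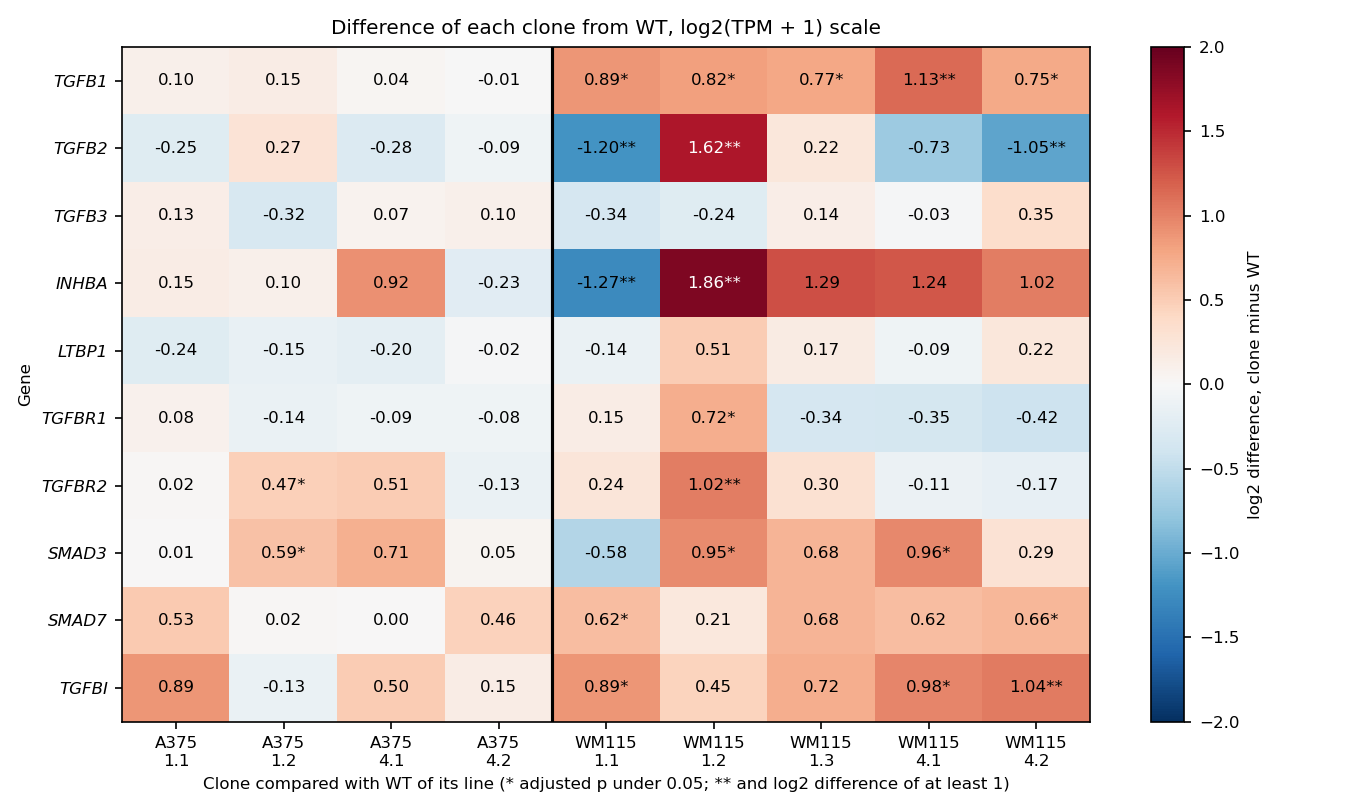
Difference of each clone from WT in log2(TPM + 1) for the 10 genes, written in each cell and coloured from blue (lower) to red (higher). A single star marks an adjusted p under 0.05 and a double star a difference that is also at least 1 in size. All double stars lie in WM115, and 3 of them are TGFB2 (clones 1.1, 1.2 and 4.2).

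Clones with the same region deleted were compared directly. Between WM115 clones 1.2 and 1.1, TGFB2 was higher in clone 1.2 by 2.82 ± 0.32 (limma adjusted p = 5.17e-06), INHBA by 3.13 ± 0.43 (adjusted p = 3.61e-05) and SMAD3 by 1.53 ± 0.29 (adjusted p = 0.000719). These 3 of 10 genes were called, against 11.8% of all genes tested, and each call held with any single library left out. Without library 3 of clone 1.2, which has the lowest SOX10, the differences were 2.69 (adjusted p = 9.14e-05), 3.33 (adjusted p = 0.000179) and 1.5 (adjusted p = 0.00535). Against WT and without that library, TGFB2 stood at 1.49 (adjusted p = 0.0276), INHBA at 2.07 (adjusted p = 0.0237) and TGFB1 at 0.75 (adjusted p = 0.0172), all still higher in clone 1.2.

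None of the 10 genes was called between A375 clones 1.2 and 1.1 (against 6.16% of all genes), between A375 clones 4.2 and 4.1 (against 2.23%) or between WM115 clones 4.2 and 4.1 (against 2.63%). At an unadjusted limma p under 0.05 those comparisons had 4, 3 and 1 of the 10, and 5075 and 3722 of 16692 genes in A375 and 3620 of 16997 in WM115. TGFBR2 differed between A375 clones 4.2 and 4.1 by −0.64 ± 0.13 (adjusted p = 0.0124) and between clones 1.2 and 1.1 by 0.45 ± 0.13 (adjusted p = 0.0339). The first was lost without library 2 or 3 of clone 4.2 (adjusted p = 0.0624 and 0.103), and the second without library 2 or 3 of clone 1.1 or library 1, 3 or 4 of clone 1.2 (adjusted p from 0.0691 to 0.159).

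With clones as the units and both lines in the fit, the clones of each deletion were compared with WT, which entered as a mean per line. No group is labelled as an unedited clone, so a deletion cannot be told apart from editing and cloning here. None of the 10 genes was called for R1 against WT, for R4 against WT or for R1 against R4, and the share of all genes called was 0.0% in each. At an unadjusted limma p under 0.05 there were 1, 2 and 1 of the 10, and 333, 479 and 858 of 18472 genes. TGFB1 had differences of 0.49 ± 0.21 for R1 and 0.47 ± 0.21 for R4, both with an adjusted p of 1.0.

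Across libraries within a line the 10 genes varied together in part, given here as Pearson r without a test, since libraries of a group share that group. In WM115 (21 libraries) r was 0.80 between SMAD3 and INHBA, 0.75 between TGFBR1 and TGFBR2, 0.66 between TGFB2 and TGFBR2 and 0.54 between TGFB2 and INHBA. In A375 (18 libraries) it was 0.77 between TGFBR2 and SMAD3 and 0.64 between TGFBR2 and INHBA.

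TGFB2 and INHBA were called in the most comparisons, so the genes most like them over all 39 libraries, each line centred on its mean, were looked up among 15287 genes. For TGFB2 these were TSC22D2 (r = 0.85), RIN2 (r = 0.85) and F2RL2 (r = 0.84). Their r was 0.93, 0.92 and 0.93 within WM115 and 0.32, 0.49 and 0.42 within A375. F2RL2, which encodes a thrombin receptor family member, had a mean of 54.8 TPM in WM115 WT, 21.5 TPM in clone 1.1 and 172 TPM in clone 1.2. For INHBA these were ZBTB38 (r = 0.87), LTBP3 (r = 0.86) and NPAS2 (r = 0.86), with r of 0.77, 0.90 and 0.82 within A375 and 0.90, 0.87 and 0.88 within WM115. LTBP3, another latent TGF-beta-binding protein gene, had a mean of 144 TPM in WM115 WT, 72.0 TPM in clone 1.1 and 225 TPM in clone 1.2.

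At the transcript level, the main transcript of TGFB1 held 90.1 to 96.0% of the gene's TPM, as the median of each group. TGFB2-202 held a median of 59.5% of TGFB2 in WM115 WT and 66.4% in clone 1.2. The share of SMAD3-204 was 21.0 to 27.9% in A375 clone 1.2 against 7.82 to 12.8% in A375 WT, with no overlap. LTBP1-208 was listed at 0 in all 3 libraries of WM115 clone 4.1 and held 17.5 to 32.0% of LTBP1 in WM115 WT. LTBP1-207 held 13.8 to 40.3% in that clone and at most 3.84% in WT. These transcripts are a selection, and the share of all transcripts without overlap was not counted. LTBP1 as a whole was low, at 3.96 to 5.18 TPM in WM115 clone 4.1 and 3.44 to 5.42 TPM in WT. Transcript shares are estimates from short reads and were not tested.

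Around these genes, 54 further genes of the pathway were taken from 4 lists: ligand handling, receptors, SMADs and feedback, and targets. In A375, 46 were tested, and those called higher and lower were 1 and 0 in clone 1.1, 3 and 3 in clone 1.2, 1 and 0 in clone 4.1 (3 and 3 with replicate numbers paired) and 0 and 0 in clone 4.2. The shares of all genes called there were 0.731%, 4.01%, 0.653% (1.45% paired) and 0.473%. In WM115, 50 were tested, and the counts were 3 and 1 in clone 1.1, 7 and 2 in clone 1.2, 0 and 0 in clone 1.3, 10 and 1 in clone 4.1 and 5 and 1 in clone 4.2, against 4.88%, 7.61%, 0.618%, 7.57% and 6.6% of all genes. WM115 clone 1.2 had 7 and 5 without its library 1, 5 and 6 without its library 2 and 4 and 1 without its library 3. It had 7 and 5 without WT library 3. The further moves given here are a selection. The counts also moved without WT library 1 (1 and 0), 2 (2 and 0) or 4 (1 and 1) for WM115 clone 1.1, without library 2 for WM115 clone 4.1 (6 and 1), without library 1 for A375 clone 1.1 (2 and 0), and without library 3 (0 and 0) or WT library 2 (1 and 1) for A375 clone 4.1. With the set of mitochondrial share as a term they were 0 and 1 in WM115 clone 1.1 and 6 and 1 in WM115 clone 4.1.

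Among the targets, FN1, the fibronectin gene, rose in 3 WM115 clones. It was at 2242, 3222 and 2912 TPM in clone 1.2, at 4467, 6468 and 3018 TPM in clone 4.1 and at 5041, 3289 and 3163 TPM in clone 4.2, against 798 to 1730 TPM in WT. The clone 1.2 call (1.32, limma adjusted p = 0.0223) was lost without its library 2 (adjusted p = 0.059) or 3 (adjusted p = 0.0979) or WT library 1 (adjusted p = 0.063) or 4 (adjusted p = 0.0502). PDGFB, a platelet-derived growth factor gene, was at 6.28, 5.79, 4.23 and 9.94 TPM in A375 clone 1.2 against 0.038 to 0.366 TPM in WT (2.57 ± 0.19, adjusted p = 1.28e-07). In WM115 clone 1.1 PDGFB was called higher (1.08, adjusted p = 0.0265), a call lost without library 3 of the clone (adjusted p = 0.0772) or WT library 1, 2 or 4 (adjusted p = 0.0816, 0.0756 and 0.08). In WM115 it was also higher in clones 4.1 (2.41, adjusted p = 0.000272) and 4.2 (1.65, adjusted p = 0.00597), calls that held with any library left out. PDGFB (chr22:39223359-39244751) lies on the same chromosome as SOX10 (chr22:37970686-37987422), whose enhancer was edited. The part of that position in the PDGFB values was not tested.

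Among ligand-handling genes, INHBB, which encodes the subunit of activin B, was at 25.1, 32.2 and 13.7 TPM in WM115 clone 4.1 and at 21.7, 14.3 and 40.2 TPM in clone 4.2, against 3.41, 2.51, 2.76 and 1.02 TPM in WT. NRROS, whose product anchors latent TGF-beta to cells, fell in the same clones, to 4.96, 4.56 and 5.73 TPM and to 4.40, 3.35 and 5.57 TPM from 15.3, 17.0, 10.1 and 17.1 TPM. The INHBB differences were 2.83 ± 0.56 (limma adjusted p = 0.00174) and 2.88 ± 0.56 (adjusted p = 0.0021), and those of NRROS −1.36 ± 0.23 (adjusted p = 0.000478) and −1.54 ± 0.23 (adjusted p = 0.000252). All 4 calls held with any library left out. THBS1, whose product can release latent TGF-beta, was at 459, 806 and 287 TPM in clone 4.1 against 32.2, 41.5, 243 and 27.0 TPM in WT (3.09 ± 0.84, adjusted p = 0.0126), a call lost without library 2 of the clone (2.71, adjusted p = 0.064).

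Of the further genes on the receptors list, only BAMBI in A375 clone 1.2 was called in any of the 9 clone comparisons. BAMBI encodes a decoy receptor and was at 20.9, 17.3, 25.9 and 16.0 TPM against 63.5, 68.7, 82.4 and 58.7 TPM in WT (−1.73 ± 0.24, limma adjusted p = 0.000207). The activin receptor genes ACVR1C and ACVR2B had differences of −0.77 (adjusted p = 0.00648) and −0.52 (adjusted p = 0.0409) in WM115 clone 1.1, under the minimum size. Among SMAD partners, SKIL, a feedback repressor gene, was at 21.5, 17.6 and 29.8 TPM in WM115 clone 1.2 against 8.43, 8.32, 10.5 and 8.90 TPM in WT (1.23 ± 0.27, adjusted p = 0.00468). SMURF2, a ubiquitin ligase gene of the pathway, was at 20.9, 29.3 and 18.1 TPM in clone 4.1 against 8.40 to 13.5 TPM in WT (1.08, adjusted p = 0.00279), and it fell under the minimum size without library 2 of the clone (0.90, adjusted p = 0.025).

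PMEPA1, a feedback inhibitor gene induced by TGF-beta, was at 407, 262, 509, 330 and 246 TPM in WM115 clone 1.1, at 376, 322 and 254 TPM in clone 4.1 and at 312, 246 and 589 TPM in clone 4.2. WT library 3, at 301 TPM, overlapped these clones, while the other WT libraries held 79.5, 104 and 49.8 TPM. The differences were 1.67 (limma adjusted p = 0.0164), 1.56 (adjusted p = 0.0406) and 1.74 (adjusted p = 0.0271). The clone 1.1 call was lost without WT library 1 (adjusted p = 0.0549) or 4 (adjusted p = 0.0692), that of clone 4.1 without any of the 7 libraries except WT library 3 (adjusted p up to 0.129), and that of clone 4.2 without any except its library 2 or WT library 3 (adjusted p up to 0.116). In A375 clone 1.2 PMEPA1 was lower, at 189, 80.3, 217 and 89.8 TPM against 277, 565, 207 and 257 TPM (−1.20, adjusted p = 0.0479), and the call was lost without library 2 or 4 of the clone or WT library 1, 2 or 4 (adjusted p from 0.0652 to 0.164).

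The called clones also differed in melanocytic markers. Of 8 such markers, WM115 clone 1.1 had 1 called lower (TYR), clones 1.2 and 4.1 had 5 each, and clone 4.2 had 4, against 4.88%, 7.61%, 7.57% and 6.6% of all genes called in either direction. In that order of clones, their summed TPM was 1375 to 2528, 59.8 to 1168, 955 to 1425 and 821 to 1307, against 1255 to 3299 in WT. None of the 8 was called higher, but S100B did not fall with the others in each clone. It was at 485 to 780 TPM in clone 1.1 and 418 to 706 TPM in clone 4.1, above the 259 to 405 TPM of WT. It was at 4.87 to 319 TPM in clone 1.2 and 311 to 603 TPM in clone 4.2. The summed TPM of 6 fibroblast markers was 35.7 to 97.6 in WT, 24.1 to 53.6 in clone 1.1, 34.9 to 51.7 in clone 1.2, 10.5 to 15.3 in clone 4.1 and 9.79 to 14.9 in clone 4.2. FAP held the larger part of that sum in WT, at 29.9 to 69.2 TPM, and was at 2.59 to 6.33 TPM in clones 4.1 and 4.2. DCN of the same list was at 2.21 to 4.34 TPM in clone 4.1 against 0.058 to 0.634 TPM in WT, and COL6A3 was at 0.023 to 0.254 TPM in clones 4.1 and 4.2 against at most 0.011 TPM in WT. LUM, at 2.73 to 26.4 TPM in WT, was called lower in clones 1.1 (0.529 to 1.66 TPM), 1.2 (0.892 to 1.93 TPM) and 4.2 (1.56 to 2.33 TPM). PDGFRB was called higher in clone 1.2, at 3.95 to 11.4 TPM against 1.43 to 2.22 TPM in WT. Of 4 endothelial markers, PECAM1 was at 0.142 to 2.94 TPM in WT, 0.147 to 0.404 TPM in clone 1.1, 2.23 to 12.0 TPM in clone 1.2, 2.97 to 4.9 TPM in clone 4.1 and 3.27 to 7.45 TPM in clone 4.2. CDH5 was at 0.319 to 4.04 TPM in clone 1.2 and at most 0.064 TPM in WT. The other endothelial markers did not rise with them. VWF was at 0.018 to 0.282 TPM in clone 1.2, 0.027 to 0.045 TPM in clone 4.1 and 0.007 to 0.011 TPM in clone 4.2. It was at 0.064 to 0.365 TPM in WT. KDR was at 0.0 to 1.34 TPM, 1.81 to 3.58 TPM and 0.367 to 0.81 TPM in those clones, against 1.28 to 2.74 TPM in WT. Of 5 keratinocyte markers, KRT14 was called higher in clones 4.1 (1.92 to 3.65 TPM) and 4.2 (1.35 to 2.56 TPM), against 0.055 to 0.586 TPM in WT. In A375 WT it was at 0.911 to 26.4 TPM. KRT10 was at 40.1 to 55.8 TPM in WM115 WT, and KRT5, KRT1 and DSG3 stayed at or below 0.04 TPM in all WM115 groups. The part of these markers in the values above was not tested.

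**Figure D4:**
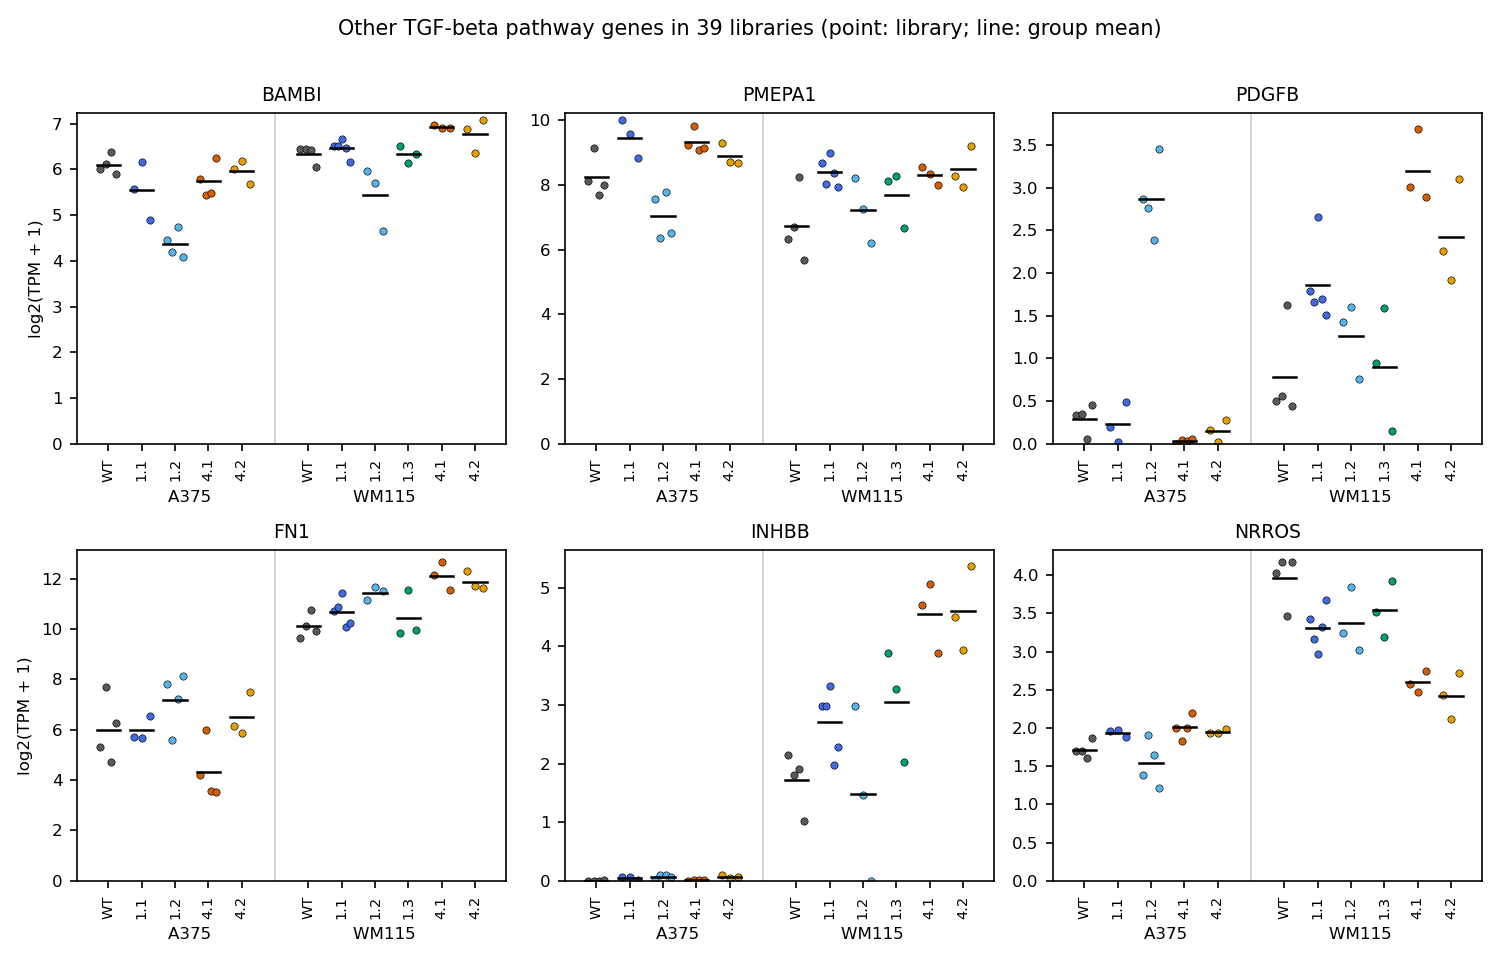
Levels of BAMBI, PMEPA1, PDGFB, FN1, INHBB and NRROS in the 39 libraries, plotted as log2(TPM + 1) by line and clone, with each point a library and each short line the group mean. In WM115 clones 4.1 and 4.2, INHBB lies above WT (13.7 to 40.2 TPM) and NRROS below WT (3.35 to 5.73 TPM).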

How the data were processed

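RNA was measured by RNA-seq in 39 libraries. The authors deposited gene and transcript tables in TPM, made with DRAGEN on GRCh38 per the submitters' processing notes, which give no version. Each table also held 6 columns that match no sample and were not used, and 200 repeated gene lines were used once. TPM keep no read counts, so no counting error can be given.

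The model was limma (version 3.58.1, under R 4.3.3) on log2(TPM + 1), fitted per line with 1 mean per group, a variance trend, two-sided tests and Benjamini-Hochberg adjustment over 16692 (A375), 16997 (WM115), 16126 (WT of both lines) or 18472 (deletions) genes that reached a TPM of 1 in no fewer than 3 libraries. Deletions were compared over clone means with line as a covariate and without WM115 clone 1.3. The fit was tested on simulated data.

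Replicate numbers were taken as pairs in the results only for A375 clone 4.1 and WT, where the deviations of all 4 same-numbered pairs correlated (r from 0.326 to 0.776).

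The 10 genes, the pathway and marker lists and the tests were chosen with earlier results of these data known. From each pathway list the 3 genes called in the most clone comparisons were named, and for the 2 of the 10 genes called most often the 3 genes with the most similar pattern. Of the genes this rule names, 1 is not reported here, and other pathway genes called are counted only. RefSeq promoters (GRCh38.p14) matched the 3 genes shown, and gene positions are from GENCODE 29. Libraries were split at a mitochondrial share of 2.5% (A375) or 7.5% (WM115). Alternatives were other pseudocounts, filters, scalings and fits, and leaving out each library.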

Additional observations from a re-analysis of the deposited data

Results flagged for a closer look

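The INHBA level of 90.9 TPM in library 2 of A375 clone 1.2 lies far below the other libraries of that clone, which held 144 to 154 TPM. It was the only sample standing apart in this way among 50 combinations of gene and group of 4 or 5 libraries, where chance alone marks about 1 in 20. INHBA in that clone differed from WT by 0.10 on the log2(TPM + 1) scale.

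WM115 clones 1.2 and 1.1, which carry the same deletion by their labels, differed in a direct limma test in TGFB2 (2.82, adjusted p = 5.17e-06), INHBA (3.13, adjusted p = 3.61e-05) and SMAD3 (1.53, adjusted p = 0.000719) on the log2(TPM + 1) scale. These were 3 of 40 such values over 4 pairs of clones.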

How the results depend on the processing

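No called difference of the 10 genes changed sign in any alternative run. Of the single-gene values, 2915 stayed within 1 SE of, or on the same side of the call as, the value reported, 64 moved further, 47 became calls and 40 were lost as calls.

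The larger changes in the count of the 10 genes called were as follows. Over the alternatives other than leaving out a library, it ran from 2 to 6 between the lines and from 2 to 4 between WM115 clones 1.2 and 1.1. Without a minimum difference it was 2 in A375 clone 1.2, 5, 6, 1, 3 and 4 in WM115 clones 1.1, 1.2, 1.3, 4.1 and 4.2, 6 between the lines, and 1 each for A375 clones 1.2 against 1.1 and 4.2 against 4.1. With median-of-ratios scaling it was 4, 4 and 1 in WM115 clones 1.1, 4.1 and 4.2, and with quantile normalization 0, 3 and 0. With a mean TPM of at least 5 it was 1 in clones 1.1 and 4.2, and with no filter 1 and 0. The filter on mean TPM leaves TGFB2 untested in WM115, so there its call is absent rather than lost. With the mitochondrial set as a term it was 1, 0 and 0 in clones 1.1, 4.1 and 4.2, and within libraries of high mitochondrial share, an alternative chosen after seeing the data, 0 in clones 1.1 and 4.2. Clone 4.1 had 2 when only its own groups were fitted and 2 without library 3 of clone 1.2 in the shared fit.

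With the replicate block, WM115 clones 1.2 and 4.2 had 0 calls. Apart from A375 clone 4.1, same-numbered libraries did not correlate in every pair. Against WT their r ran from −0.122 to 0.0526 in WM115 clone 1.2, from −0.072 to 0.141 in clone 4.2 and from −0.0423 to 0.331 in clone 1.1. Whether such libraries share a batch is not given and was not tested further. A375 clone 4.1 was the only comparison in which each of 4 libraries correlated best with its own number. The block gave 3 in WM115 clone 1.1 and 2 between WM115 clones 1.2 and 1.1, and changed the count of the 10 genes called in no other comparison. The count over all genes moved by over 1.5 times with the block in all comparisons of single clones except WM115 clone 1.1 against WT, for example from 109 to 242 in A375 clone 4.1 and from 1293 to 82 in WM115 clone 1.2. Of the 54 further pathway genes, those called higher and lower with the block were 5 and 1 in WM115 clone 1.1 and 0 and 0 in clone 1.2. In clones 4.1 and 4.2 of that line they were 3 and 0 and 3 and 1.

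Leaving out each library in turn gave 1 to 3 calls in WM115 clone 1.1, 2 to 5 in clone 1.2, 0 to 1 in clone 1.3, 1 to 2 in clone 4.1, 0 to 2 in clone 4.2, 3 to 5 between the lines, 0 to 1 for WM115 clones 4.2 against 4.1, 3 to 3 for clones 1.2 against 1.1, and 0 to 0 elsewhere. Counts over all genes ranged widely over the alternatives, from 377 to 3732 in WM115 clone 1.1 (829 reported), from 82 to 3839 in clone 1.2 (1293), from 0 to 321 in clone 1.3 (105), from 656 to 4110 in clone 4.1 (1286) and from 399 to 3449 in clone 4.2 (1122). In A375 they ranged from 0 to 221 in clone 1.1 (122), from 194 to 1423 in clone 1.2 (669), from 38 to 242 in clone 4.1 (109) and from 4 to 107 in clone 4.2 (79), and R1 against R4 gave 0 to 2. Groups of 3 to 5 libraries and unknown depth limit what low genes such as TGFB2 and INHBA in WM115 can show.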
